A study of Homo sapiens with 8 samples.

Results

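The 10 genes described here encode enzymes that modify and cross-link collagen: the lysyl oxidase LOX and its relatives LOXL1, LOXL2, LOXL3 and LOXL4, the lysyl hydroxylases PLOD1, PLOD2 and PLOD3, and the prolyl 4-hydroxylase alpha subunits P4HA1 and P4HA2. They were chosen by gene symbol, and each was read by 1 probe set of the array, so 10 of the 18417 genes tested are members. All 10 lay outside the lowest 30% of mean signal, which is called dim below. Expression was measured on 8 Affymetrix human gene arrays in U2OS, a human osteosarcoma cell line spelled U20S in one label. The 4 CDK9 siRNA cultures received siRNA against CDK9, the kinase of the elongation factor P-TEFb, and the 4 control siRNA cultures received a non-targeting siRNA. In both groups the siRNA was used at 10 nM with a lipid reagent, and cells were collected after 72 h. The cultures are described as biological replicates of 1 cell line, and the sources used here do not give the number of siRNA sequences.

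Collagen chains are modified in the endoplasmic reticulum before they fold. Prolyl 4-hydroxylase, made of a catalytic alpha subunit and the beta subunit P4HB, hydroxylates prolines and so stabilises the triple helix, while the PLOD enzymes hydroxylate lysines. Outside the cell, copper-dependent lysyl oxidases oxidise lysines and hydroxylysines to aldehydes that form the covalent cross-links of collagen and elastin fibres, and bone is among the tissues that depend on this process most.

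The arrays fell into array set 1 (replicate 1 of both groups) and array set 2 (replicates 2 to 4), which lie on different scales. Array medians were 5.80 to 5.85 in set 1 and 6.99 to 7.04 in set 2, so the set was a block in the fit, and values are compared within a set. CDK9 itself was 3.52-fold lower with its siRNA (log2 -1.82 ± 0.05 SE, n = 4 per group, limma adjusted p = 2.17e-07). Of 9 measured osteoblast and mesenchymal markers, 7 were above the dim limit of 6.14, and ALPL and IBSP were below it. Some lineage markers themselves moved: of the 9, 1 rose, 3 fell and 5 did not pass, beside 6.73% higher and 7.47% lower over all genes. Most of those called moved by more than any of the 10 enzymes. COL1A2, SPARC, SP7, ALPL and IBSP did not pass (limma adjusted p = 0.0884 to 0.846). SPARC differed by -0.70 in set 1, with 1 array per group, and by -0.07 in set 2. SPP1, the bone matrix protein osteopontin, rose by 1.5 (limma adjusted p = 3.16e-05), RUNX2, the transcription factor of the osteoblast lineage, fell by 0.60 (adjusted p = 0.000344), COL1A1 by 0.51 (adjusted p = 0.0011) and the intermediate filament VIM by 0.19 (adjusted p = 0.0323). VIM was not called when replicates were blocked (0.0808), with arrays centred on their medians (0.063) or without any 1 of replicates 2 to 4 of either group (0.0526 to 0.102). The part of these markers in the enzyme and collagen values below was not tested. Of 10 markers of epithelial, blood and endothelial cells, 8 were dim, and the other two, KRT19 and CD79A, had mean signals of 6.55 and 6.20. The epithelial marker EPCAM, itself dim, differed by 0.32 (limma adjusted p = 0.0366, and 0.0841 when replicates were blocked). It was not called without CDK9 siRNA replicate 2, 3 or 4 or control siRNA replicate 3 or 4 (0.054 to 0.105), and its part in any result below was not tested. The number of arrays limits the precision, and in bulk RNA fewer cells of a kind and less RNA per cell cannot be told apart.

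LOX and PLOD2 rose after CDK9 siRNA and PLOD3 fell, while the other 7 enzymes did not pass the test. The PLOD3 call was lost when replicates were blocked by number and in 5 of the 8 fits that leave out 1 array, whereas LOX and PLOD2 stayed called in these fits. The changes were small, 1.35-fold and 1.27-fold for the rises and 1.15-fold for the fall. The test was limma's moderated test with Benjamini-Hochberg adjustment over all genes, called at an adjusted p under 0.05. By the same rule 14.2% of all genes were called, 6.73% higher and 7.47% lower, so 2 of 10 higher and 1 of 10 lower is a description of these enzymes and is not read as an excess. The median log2 difference was -0.01 over the 10 enzymes and 0.00 over all genes.

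**Figure D1:**
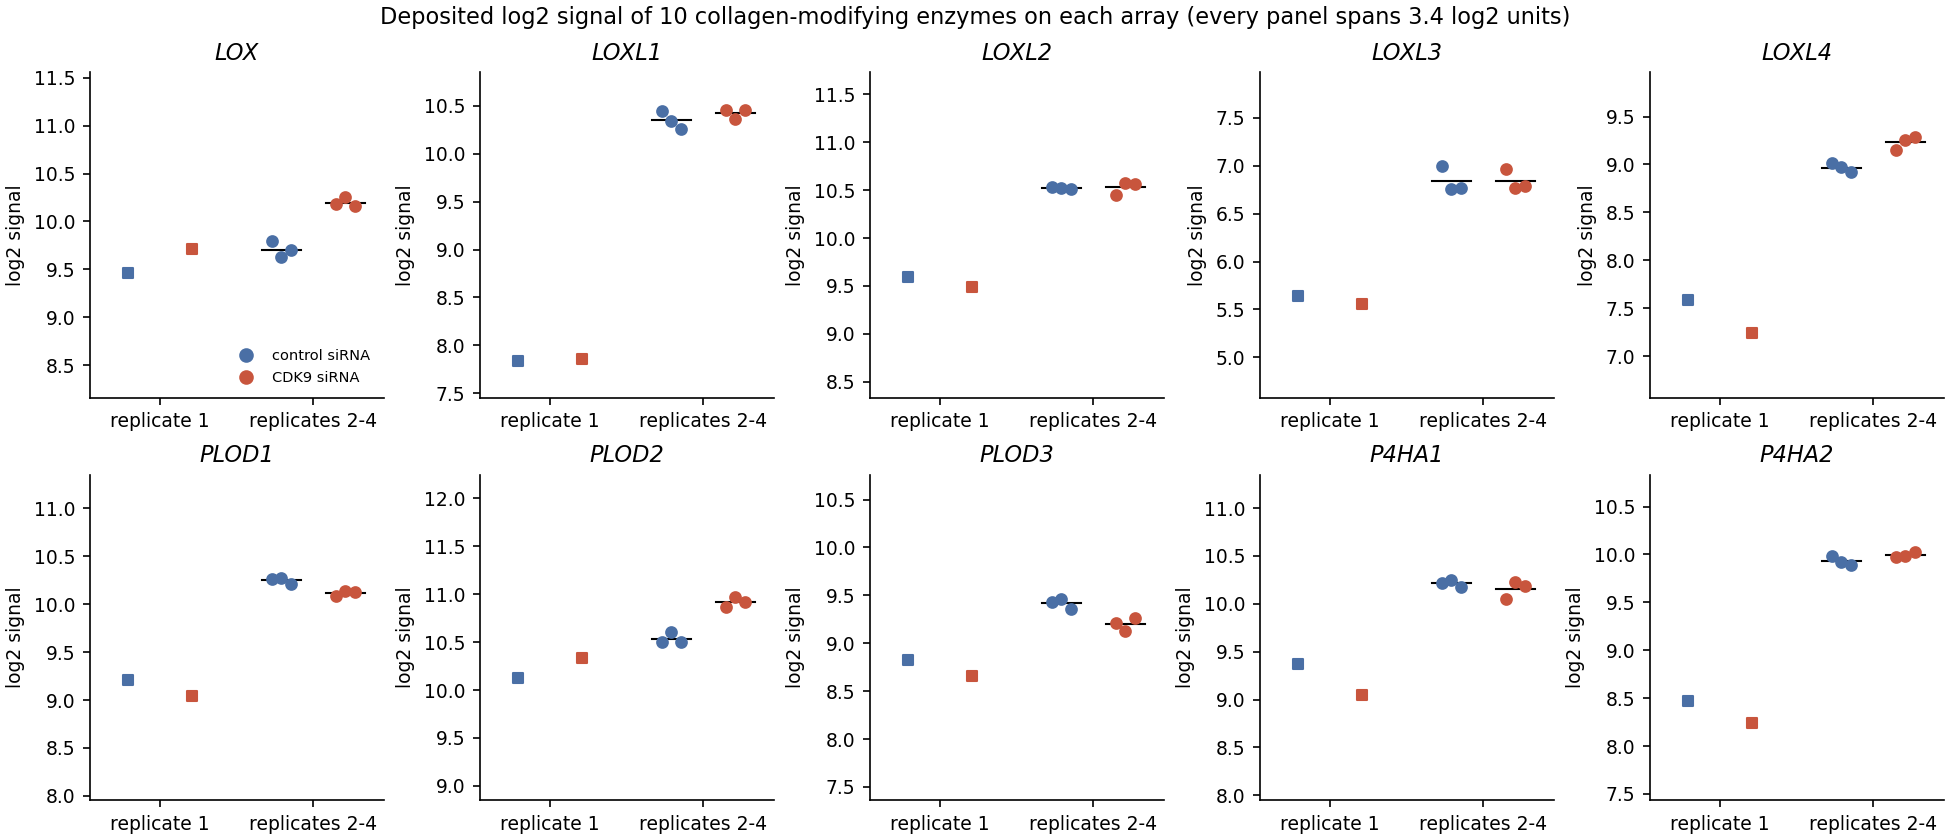
Deposited log2 signal (vertical axis) of each enzyme on each array, for replicate 1 (squares) and replicates 2 to 4 (circles, with a line at the mean), in control siRNA (blue) and CDK9 siRNA (red) cultures. For LOX and PLOD2 the CDK9 siRNA arrays lie above the controls in both array sets, for PLOD1 and PLOD3 below them, and for LOXL4 below in replicate 1 and above in replicates 2 to 4.

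LOX, the founding lysyl oxidase, read 9.71, 10.18, 10.25 and 10.16 in CDK9 siRNA replicates 1 to 4. In the controls it read 9.46, 9.79, 9.63 and 9.70. In set 2 every CDK9 siRNA array was above every control array, and in set 1 the CDK9 siRNA array was above the control array. Set 1 holds 1 array per group, so only set 2 could show overlap, for this and the other enzymes. The share of all genes that separate in this way is not given here. LOX rose by 0.43 ± 0.06 (log2, SE, n = 4 per group, 95% confidence interval 0.29 to 0.57, limma adjusted p = 0.00275). Set 1 gave a difference of 0.25 and set 2 one of 0.49. With any 1 array left out it lay between 0.39 and 0.49 and stayed called.

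LOXL1, which is tied to elastic fibre upkeep, did not pass. Its CDK9 siRNA arrays read 7.86, 10.46, 10.36 and 10.45 and its control arrays 7.84, 10.45, 10.34 and 10.26, so the groups overlapped in set 2. The difference was 0.06 (95% confidence interval -0.07 to 0.19, limma adjusted p = 0.555). LOXL1 also had the widest gap between array sets of the 10 enzymes in the plot of signal by array.

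LOXL2, which acts on collagen IV among other substrates, read 9.49, 10.45, 10.57 and 10.57 with CDK9 siRNA and 9.60, 10.53, 10.53 and 10.51 in controls. The groups overlapped in set 2, and the difference of -0.02 had an interval of -0.14 to 0.10 (limma adjusted p = 0.85). Its sign turned to 0.01 in array set 2 alone and to 0.00 with arrays centred on their medians. LOXL3, another lysyl oxidase relative, read 5.55, 6.96, 6.77 and 6.78 with CDK9 siRNA, within the range of the controls in set 2. Its difference was -0.02 (interval -0.19 to 0.14, limma adjusted p = 0.876), and it turned to 0.03 without control siRNA replicate 2.

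LOXL4, a further lysyl oxidase relative, went opposite ways in the array sets. It read 7.24 with CDK9 siRNA and 7.58 in the control of set 1. In set 2 the CDK9 siRNA arrays read 9.15, 9.26 and 9.28, above the control arrays at 9.01, 8.97 and 8.92. The difference was -0.34 in set 1 and 0.26 in set 2, and 0.11 over all arrays (interval -0.11 to 0.34, limma adjusted p = 0.532). Set 1 minus set 2 was -0.61 ± 0.11 (SE, limma interaction test over all genes, adjusted p = 0.0434). By that interaction test 2.14% of all genes were called, and LOXL4 was the only one of the 10 enzymes. Without CDK9 siRNA replicate 1 or without control siRNA replicate 1, which leaves set 2 to decide the value, LOXL4 passed as higher (0.26, limma adjusted p = 0.0169), in a fit that called 9.52% of all genes higher and 8.57% lower. Set 1 holds 1 array per group, so this difference between sets rests on a single pair.

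PLOD2, the lysyl hydroxylase of the collagen telopeptides, read 10.34, 10.87, 10.97 and 10.92 with CDK9 siRNA and 10.13, 10.51, 10.60 and 10.50 in controls. The CDK9 siRNA arrays were above the controls in both sets, by 0.21 in set 1 and by 0.38 in set 2. PLOD2 rose by 0.34 ± 0.06 (log2, SE, n = 4 per group, 95% confidence interval 0.21 to 0.47, limma adjusted p = 0.00475). Its 95% interval and that of LOX overlap, so the larger value of LOX is not a shown difference.

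PLOD3, a lysyl hydroxylase that also transfers sugars to hydroxylysine, went the other way. It read 8.66, 9.21, 9.13 and 9.26 with CDK9 siRNA and 8.83, 9.43, 9.46 and 9.36 in controls, with no overlap within either set. PLOD3 fell by 0.20 ± 0.05 (log2, SE, n = 4 per group, 95% confidence interval -0.32 to -0.09, limma adjusted p = 0.0322). When replicates were blocked by number, its adjusted p was 0.0867, in a fit that called 4.41% of all genes higher and 4.75% lower. Leaving out CDK9 siRNA replicate 2 or 3 also ended the call (adjusted p = 0.0696 and 0.0904) as did leaving out control siRNA replicate 2, 3 or 4 (adjusted p = 0.089, 0.109 and 0.06), with values of -0.18 to -0.22.

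PLOD1, the lysyl hydroxylase of the triple-helical part of collagen, was lower on every CDK9 siRNA array within its set but did not pass. It read 9.04, 10.09, 10.14 and 10.13 with CDK9 siRNA and 9.21, 10.27, 10.27 and 10.21 in controls. The difference was -0.14 ± 0.05 (SE, n = 4 per group, 95% confidence interval -0.25 to -0.04, limma adjusted p = 0.0769). It passed with dim genes left out (0.0375), with arrays quantile normalized again (0.0469) and with a trended robust prior (0.0209).

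P4HA1, the alpha subunit of the main collagen prolyl 4-hydroxylase in many cells, read 9.05, 10.05, 10.23 and 10.18 with CDK9 siRNA and 9.37, 10.22, 10.25 and 10.18 in controls. The groups overlapped in set 2. The difference was -0.13 (95% confidence interval -0.28 to 0.02, limma adjusted p = 0.249), with -0.33 in set 1 and -0.06 in set 2.

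P4HA2, the alternative alpha subunit, read 8.24, 9.97, 9.98 and 10.02 with CDK9 siRNA and 8.47, 9.98, 9.92 and 9.89 in controls, again overlapping in set 2. Its difference was -0.01 (interval -0.15 to 0.13, limma adjusted p = 0.948). It was -0.22 in set 1 and 0.06 in set 2, and 0.01 with arrays centred on their medians. In set 1, 7 of the 10 enzymes were lower with CDK9 siRNA, against 4 of 10 in set 2. All 4124 genes with a mean signal of 9 or more had a median difference of -0.07 in set 1 and 0.02 in set 2. Over all genes the medians were 0.00 in set 1 and -0.01 in set 2. The part of the shift of bright genes in the set 1 values of P4HA1 and P4HA2, which are in that class, was not tested.

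**Figure D2:**
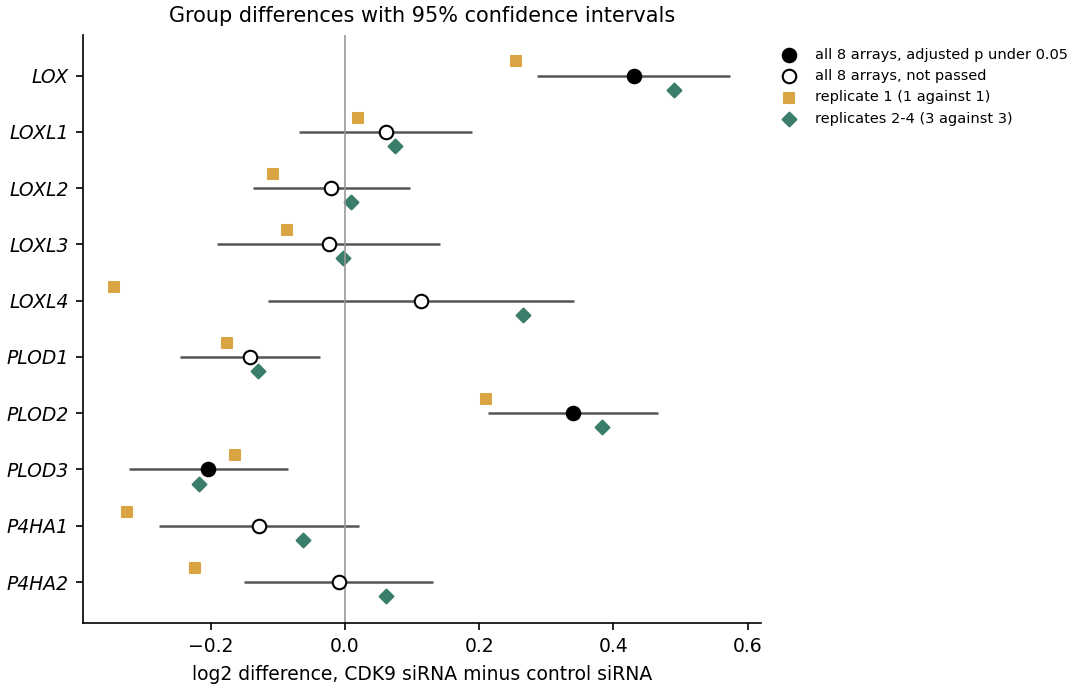
Log2 difference of each enzyme (horizontal axis, CDK9 siRNA minus control siRNA) over all 8 arrays with its 95% confidence interval (large points, filled where the adjusted p is under 0.05), in replicate 1 (squares) and in replicates 2 to 4 (diamonds). LOX at 0.43 and PLOD2 at 0.34 lie to the right in both array sets, PLOD3 at -0.20 and PLOD1 at -0.14 to the left, and the LOXL4 values of -0.34 and 0.26 lie on opposite sides of 0.

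The lysyl hydroxylases were then set against each other within each array, since their differences had opposite signs. This comparison was chosen after the values were seen. Signals of different probe sets are not comparable as levels, so only the shift between groups carries meaning. PLOD2 minus PLOD1 was 1.30 with CDK9 siRNA and 0.91 in the control in set 1. In set 2 it was 0.78, 0.83 and 0.79 against 0.24, 0.33 and 0.29, with no overlap. The shift was 0.48, a 1.40-fold change of the ratio, with 0.39 in set 1 and 0.51 in set 2.

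PLOD2 minus PLOD3 shifted by 0.54, or 1.46-fold, with 0.37 in set 1 and 0.60 in set 2. PLOD3 minus PLOD1 shifted by -0.06, with 0.01 in set 1 and -0.09 in set 2. LOX minus LOXL2 shifted by 0.45, with 0.36 in set 1 and 0.48 in set 2. An exact two-sided permutation test within array sets has 40 arrangements and cannot go below p = 0.05, and the ratios follow from values already seen, so these shifts are a description with no test.

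**Figure D3:**
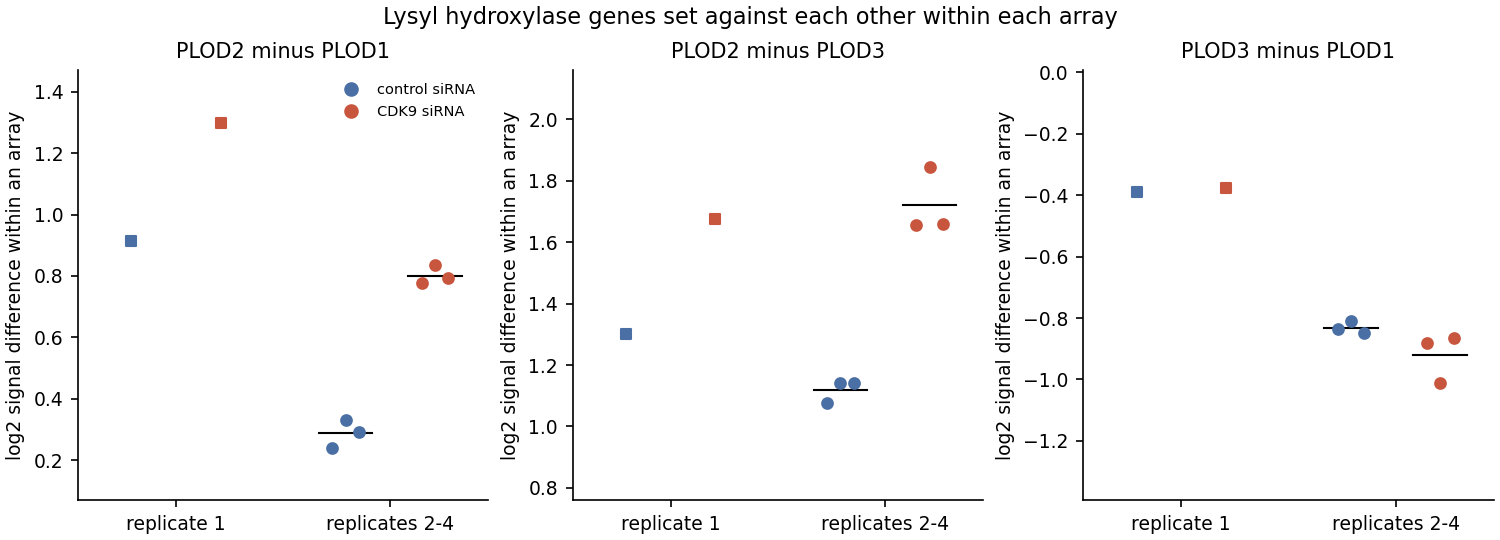
Difference in log2 signal between lysyl hydroxylase genes on the same array (vertical axis), for replicate 1 (squares) and replicates 2 to 4 (circles, with a line at the mean), in control siRNA (blue) and CDK9 siRNA (red) cultures. PLOD2 minus PLOD1 and PLOD2 minus PLOD3 are higher with CDK9 siRNA in both array sets, while PLOD3 minus PLOD1 shifts by -0.06 overall.

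The promoters of the 3 called enzymes are shown so that the genes that rose (LOX and PLOD2) can be set beside the one that fell (PLOD3, whose call was lost in several alternatives). Each sequence is the 250 bases before the gene's start from RefSeq (build GRCh38.p14), 5′ to 3′ on the gene's strand, here the minus strand for all of them. Capitals mark ACGTG on either strand, 1 of 8 motifs searched and a form of the core of the element bound by hypoxia-inducible factors. Other forms of this core were not searched and are not marked. The windows are chr5:122078260-122078509 for LOX, the farthest upstream of 3 entries, chr3:146161185-146161434 for PLOD2 and chr7:101217582-101217831 for PLOD3.
LOX: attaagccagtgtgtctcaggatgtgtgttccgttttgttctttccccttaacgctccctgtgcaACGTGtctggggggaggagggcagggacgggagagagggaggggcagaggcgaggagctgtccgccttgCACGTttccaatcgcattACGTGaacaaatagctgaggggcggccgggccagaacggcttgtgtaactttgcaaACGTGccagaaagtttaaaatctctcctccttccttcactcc
PLOD2: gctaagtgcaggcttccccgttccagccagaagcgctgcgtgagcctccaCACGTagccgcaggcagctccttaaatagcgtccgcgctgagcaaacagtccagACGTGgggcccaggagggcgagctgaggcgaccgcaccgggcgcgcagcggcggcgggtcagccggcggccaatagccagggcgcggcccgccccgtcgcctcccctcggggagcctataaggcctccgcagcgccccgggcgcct
PLOD3: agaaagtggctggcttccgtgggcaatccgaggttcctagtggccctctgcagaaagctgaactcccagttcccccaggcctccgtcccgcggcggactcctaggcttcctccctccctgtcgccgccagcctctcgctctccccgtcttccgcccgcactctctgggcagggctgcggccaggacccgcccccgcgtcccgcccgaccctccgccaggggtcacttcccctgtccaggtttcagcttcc

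ACGTG stood 4 times in the LOX window, at 185, 116, 98 and 42 bases before the start, and 2 times in that of PLOD2, at 200 and 146 bases. P4HA1, which did not pass, held 1 copy, at 86 bases. The windows of LOXL1, LOXL3, LOXL4, PLOD1, PLOD3 and P4HA2 held no ACGTG, and other forms of the core were not searched. LOXL2 has no entry in the table. Of all 35116 promoters in the table, 18.5% held ACGTG at least 1 time, 7.52% at least 2 times and 0.669% at least 4 times.

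In all 8 motifs were searched on both strands, with results of these data known. Besides ACGTG they were the E-box CACGTG, which contains it, the core promoter motif TATAAA, the letters CCAAT, the Sp1 motif GGGCGG, the AP-1 motif TGACTCA, the SMAD motif CAGAC, and the TEAD motif GGAATG. Of these, CCAAT stood in the LOX, PLOD2 and P4HA2 windows and in 32.0% of all promoters. The motif GGGCGG stood 4 times in PLOD1, 3 times in PLOD3, 6 times in LOXL4 and 1 time each in LOX and PLOD2, and in 42.6% of all promoters. Neither CACGTG nor the AP-1 motif stood in any of the 9 windows, against 6.34% and 4.2% of all promoters. The motif CAGAC stood in 5 of the 9 windows and in 38.0% of all promoters. Both CCAAT and CAGAC, like ACGTG, were in the LOX and PLOD2 windows and not in that of PLOD3, so ACGTG is not alone in this split. TATAAA stood in the window of P4HA1 and the TEAD motif in that of LOXL3, against 10.7% and 11.9% of all promoters. GC content was 55.2% for LOX, 72.4% for PLOD2, 70.4% for PLOD1 and 69.2% for PLOD3. These matches describe letters in a window and are not measured binding sites.

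Partners that act with the hydroxylases moved both ways. Of 13 measured genes of prolyl and lysyl modification, 3 rose, 3 fell and 7 did not pass, with a median of 0.02. By the same limma rule 6.73% of all genes were called higher and 7.47% lower. Counts of lists here and below are descriptions and are not read as an excess. At an unadjusted p under 0.05, 3 of this list were higher and 5 lower, beside 2448 higher and 2712 lower of all 18417 genes. Among those that did not pass, PPIB differed by -0.15 (limma adjusted p = 0.0626) and COLGALT1 by -0.11 (0.178). P4HB, the beta subunit that P4HA1 and P4HA2 need and a protein disulfide isomerase in its own right, fell by 0.93 ± 0.05 (log2, SE, n = 4 per group, limma adjusted p = 2.01e-05). SERPINH1, the collagen chaperone HSP47, fell by 0.37 ± 0.05 (adjusted p = 0.00112). FKBP10, a chaperone that aids telopeptide hydroxylation, fell by 0.18 (adjusted p = 0.0372, and 0.0978 when replicates were blocked).

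TMEM38B, a cation channel of the endoplasmic reticulum, rose by 0.58 ± 0.07 (SE, n = 4 per group, limma adjusted p = 0.00131). P3H4, a partner of PLOD1 in the endoplasmic reticulum, rose by 0.37 (adjusted p = 0.0131), and CRTAP, a partner of prolyl 3-hydroxylase, by 0.22 (adjusted p = 0.018, and 0.0578 when replicates were blocked). CRTAP was also not called without CDK9 siRNA replicate 3 (0.0527) or control siRNA replicate 4 (0.0651). The call of FKBP10 was lost with arrays centred on their medians (0.0592) and without any 1 of replicates 2 to 4 of either group (0.0762 to 0.121). The prolyl 3-hydroxylases P3H1, P3H2 and P3H3 differed by 0.06, 0.02 and 0.02, and P4HA3 by 0.02, none of them past the test.

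**Figure D4:**
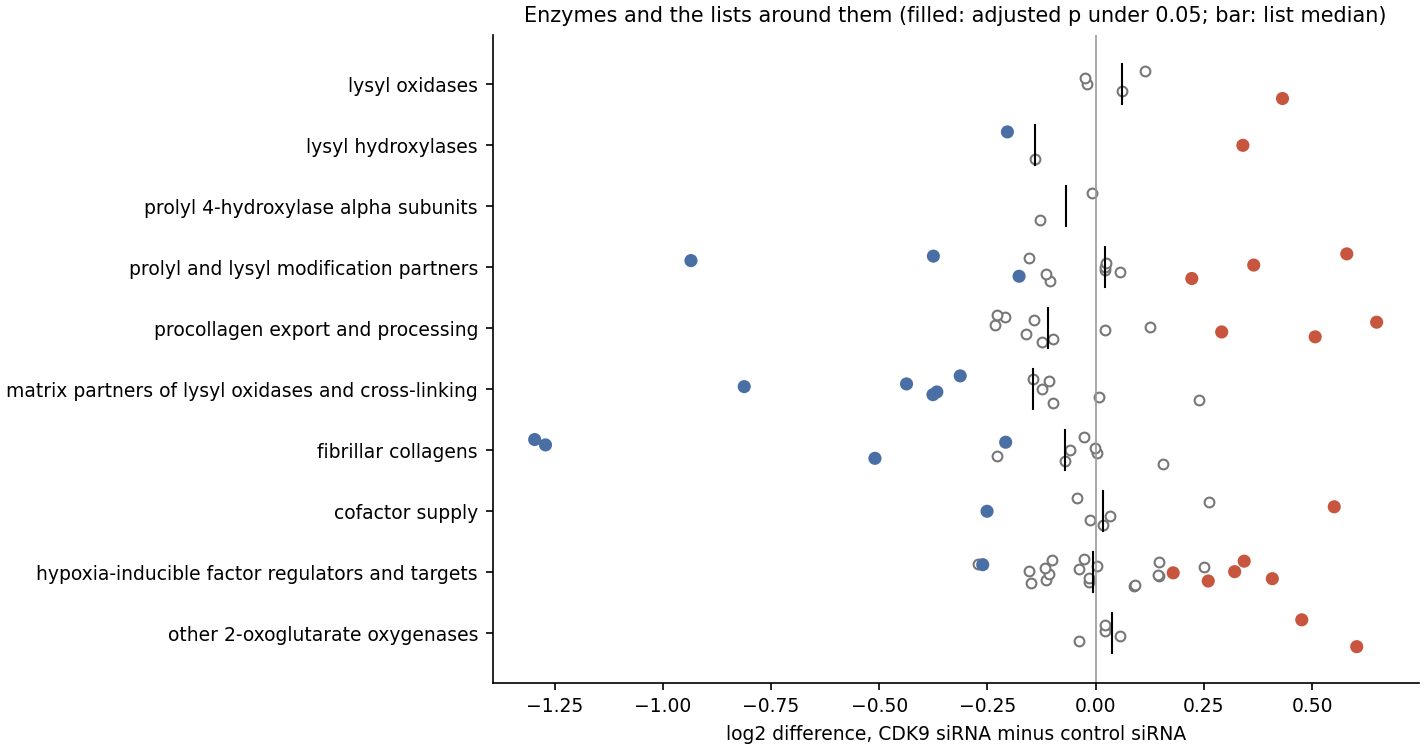
Log2 difference (horizontal axis, CDK9 siRNA minus control siRNA) of every measured gene in the enzyme groups and in the lists around them. Filled points passed the adjusted p of 0.05 (red higher, blue lower), open points did not, and bars are list medians. Fibrillar collagens and matrix partners have filled points on the lower side only, down to COL5A2 at -1.30, while the lysyl oxidases have 1 filled point, LOX, on the higher side.

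Some of the substrates fell. Of 11 fibrillar collagen genes 4 fell, 0 rose and 7 did not pass in limma, with a median of -0.07. Over all genes 7.47% were called lower and 6.73% higher, and the count is a description of this list. At an unadjusted p under 0.05, 5 of this list were lower and 0 higher, beside 2712 lower and 2448 higher of all 18417 genes. COL1A2, the other chain of type I collagen, differed by -0.23 (limma adjusted p = 0.0884), and in array set 2 alone it was called lower (-0.33, adjusted p = 0.00626). Its difference in set 1 was 0.09. COL5A2 fell by 1.30 (adjusted p = 2.01e-05), COL3A1 by 1.27 (adjusted p = 7.85e-05) and COL1A1, a chain of type I collagen, the main collagen of bone, by 0.51 (adjusted p = 0.0011).

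COL5A1 fell by 0.21 (limma adjusted p = 0.0494), and this call ended when replicates were blocked (0.0984), with arrays centred on their medians (0.0607), with all probe sets tested (0.0508) and with the probe set of largest variance (0.0506). It also did so without CDK9 siRNA replicate 2 or 3 or control siRNA replicate 2, 3 or 4 (0.109 to 0.143). In array set 2 alone, limma also called 1 fibrillar collagen higher, COL11A1 (0.26, adjusted p = 0.0372), in a fit that called 9.52% of all genes higher. COL11A1 differed by -0.17 in set 1.

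Some matrix proteins that bind lysyl oxidases or cross-linked fibres also fell. Of 11 measured, 5 were lower, 0 higher and 6 did not pass in limma, with a median of -0.15. The shares over all genes were 7.47% lower and 6.73% higher. At an unadjusted p under 0.05, 5 of this list were lower and 1 higher, beside 2712 lower and 2448 higher of all 18417 genes. EFEMP2, the fibulin that brings LOX to elastin, was the highest of them at 0.24 (limma adjusted p = 0.0545). Fibronectin FN1 fell by 0.81 (adjusted p = 0.000517), the fibril-binding proteoglycan LUM by 0.44 (adjusted p = 0.00594), FBLN5, an elastic fibre protein, by 0.38 (adjusted p = 0.0062), and the microfibril protein FBN1 by 0.37 (adjusted p = 0.0112). THBS1, thrombospondin, fell by 0.31 (adjusted p = 0.0185), and its call was lost without CDK9 siRNA replicate 3 (0.0517) or control siRNA replicate 3 or 4 (0.0615 and 0.0617). ELN, elastin, differed by 0.01 (adjusted p = 0.96). In array set 2 alone EFEMP2 was called higher by limma (0.33, adjusted p = 0.00627) and the transglutaminase TGM2 lower (-0.26, adjusted p = 0.0301). In set 1, with 1 array per group, EFEMP2 differed by -0.03 and TGM2 by 0.19.

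Of 12 measured genes of procollagen export and processing, 3 rose, 0 fell and 9 did not pass in limma, although the median was -0.11. Over all genes, limma called 6.73% higher and 7.47% lower by the same rule. At an unadjusted p under 0.05, 3 of this list were higher and 3 lower, beside 2448 higher and 2712 lower of all 18417 genes. SEC23A, a coat protein of the vesicles that leave the endoplasmic reticulum, rose by 0.65 ± 0.05 (SE, n = 4 per group, adjusted p = 0.000209). ADAMTS3, a procollagen protease, rose by 0.51 (adjusted p = 0.013), with 0.08 in set 1, and MIA2, which helps load collagen for export, by 0.29 (adjusted p = 0.0119). BMP1, which cleaves procollagen and the propeptide of LOX, differed by -0.16 (limma adjusted p = 0.0857). In array set 2 alone limma called 3 genes of this list lower: SEC24D (-0.21, adjusted p = 0.0436), ADAMTS14 (-0.21, adjusted p = 0.0363) and TLL1 (-0.42, adjusted p = 0.0123). That fit called 8.57% of all genes lower. In set 1, with 1 array per group, the same genes went the other way, by 0.07, 0.13 and 0.41. ADAMTS14 and TLL1 were dim.

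Lysyl oxidases need copper, and the hydroxylases need iron and ascorbate. Of 7 cofactor supply genes, 1 rose, 1 fell and 5 did not pass, beside 6.73% higher and 7.47% lower over all genes. SLC31A1, the copper importer, rose by 0.55 ± 0.06 (SE, n = 4 per group, limma adjusted p = 0.00067). SLC23A2, an ascorbate transporter, fell by 0.25 ± 0.05 (adjusted p = 0.0107). ATP7A, the pump that loads copper into secreted enzymes, differed by -0.01 (adjusted p = 0.909). SLC31A2, also of this list, differed by 0.26 (adjusted p = 0.0511). In array set 2 alone limma called SLC31A2 higher (0.34, adjusted p = 0.0146), in a fit that called 9.52% of all genes higher. Its difference in set 1 was 0.02. Of 6 other 2-oxoglutarate oxygenases, 2 rose: ASPH, which hydroxylates aspartate, by 0.60 (adjusted p = 0.000176) and P4HTM, a membrane-bound prolyl hydroxylase, by 0.48 (adjusted p = 0.00107). The other 4 did not pass, and of them P3H1, P3H2 and P3H3 are also counted among the modification partners above.

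Known targets of hypoxia-inducible factors in many cells include LOX, PLOD2 and P4HA1. They are named as examples. The other enzymes are not thereby non-targets, and target status was not tested here. The enzymes named are also those whose windows held ACGTG. The naming is not complete, so no match between motif, target status and change is read from it. Of 24 measured regulators and targets of hypoxia-inducible factors, 5 rose, 1 fell and 18 did not pass, with a median of -0.01. Over all genes 6.73% were called higher and 7.47% lower. CA12, a carbonic anhydrase, rose by 0.41 (limma adjusted p = 0.0016), the glucose transporter SLC2A1 by 0.34 (0.00434) and HIF1AN, an oxygenase that inhibits the factors, by 0.32 (0.00553). At an unadjusted p under 0.05, 9 of this list were higher and 3 lower, beside 2448 higher and 2712 lower of all 18417 genes. Among the genes that did not pass, NDRG1 differed by 0.25 (0.0642), the glycolytic enzymes PGK1 by 0.15 (0.0774) and ENO1 by 0.14 (0.0822), VEGFA by -0.10 (0.281), LDHA by -0.04 (0.678) and PDK1 by 0.00 (0.989). In array set 2 alone NDRG1 (0.36, adjusted p = 0.00378) and PGK1 (0.18, adjusted p = 0.0277) were called higher by limma. In set 1 NDRG1 differed by -0.07 and PGK1 by 0.05.

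BNIP3 at 0.26 (limma adjusted p = 0.0306), HIF1A at 0.18 (0.0445) and the glycolysis regulator PFKFB3 at -0.26 (0.0317) were called, but none stayed called when replicates were blocked (0.0565, 0.0969 and 0.072). HIF1A lost it in array set 2 alone (0.072), with quantile normalization (0.0612) and without any 1 array (0.058 to 0.119). PFKFB3 lost it with quantile normalization (0.0589) and without any 1 of replicates 2 to 4 of either group (0.0627 to 0.0995). BNIP3 lost it without CDK9 siRNA replicate 3 or 4 or control siRNA replicate 2, 3 or 4 (0.0721 to 0.0917).

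The genes whose pattern was most like that of LOX were PARG, SERPINB5 and C5orf24, with Pearson r of 0.9958, 0.9952 and 0.9925 over the 8 arrays after the mean of each array set was removed. They rose by 0.24, 0.70 and 0.36. Those most like PLOD3 were TSEN34, DOP1B and PBXIP1, with r of 0.9951, 0.9945 and 0.9944, and they fell by 0.23, 0.38 and 0.28. The 8 points share the group difference and the arrays, and these genes are the closest of 18417, so the values are a description only.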

How the data were processed

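RNA of 8 U2OS cultures was measured on Affymetrix arrays. The authors deposited log2 values for 33297 probe sets. RMA, limma, hg19 and Affymetrix Expression Console 1.1 are named per the submitters' processing notes, without their roles or the arrays that were normalized together.

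Probe sets with 1 symbol (19460) were used, and the one of highest mean was kept per gene. limma 3.58.1 in R 4.3.3 fitted group plus array set, with Benjamini-Hochberg adjustment over 18417 genes. Figures used Python 3.11.15 and matplotlib 3.10.9. The limma fit was tested for this comparison on simulated data with 18417 genes, of which 50 were changed at each fold. It recovered 34% of 1.2-fold, 98% of 1.5-fold and 100% of 2-fold changes, and 10 of 176 calls were unchanged genes. The data themselves gave 2615 calls, so these rates may not carry over to them. No array pair was identical.

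Deviations from group means of same-numbered arrays correlated at 0.822, 0.537, 0.494 and 0.607 for replicates 1 to 4, over the limit of 0.1 for printing a replicate-blocked value where it changes a call. These deviations still hold the gap between array sets: differently numbered arrays of set 2 correlated at 0.405 to 0.561. Against group means of set 2 alone, replicates 2 to 4 correlated at 0.108, -0.011 and 0.17, so pairing within set 2 is not shown. The enzymes, lists and tests were chosen with earlier results of these data known. Named genes were CDK9, all 10 enzymes, the called members of each list, marker lists included (at most 6), members used to describe a count, and the 3 genes most like LOX and PLOD3. LOXL2 has no promoter shown. Coordinates are GRCh38.p14 and come from RefSeq only. COLGALT2, KDELR2, TNXB, EGLN2, CA9, BGLAP and HBA1 had no probe set with a single symbol.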

Additional observations from a re-analysis of the deposited data

Results flagged for a closer look

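The LOXL4 difference between groups was not the same in the array sets: set 1 minus set 2 was -0.609 on the log2 scale (limma interaction test, adjusted p = 0.0434), with 1 array per group in set 1. Arrays were also checked for values apart from the other 3 of their group, after the mean of the array set was removed. LOXL3 in CDK9 siRNA replicate 2 deviated by 0.12, against -0.07 to -0.04 in the others, and the gap was 0.846 of the group's range. PLOD1 in control siRNA replicate 4 deviated by 0.03, against 0.08 to 0.09 in the others, and the gap was 0.906 of the range. For independent values of 1 spread, chance marks about 1 in 20 groups in this way, and 20 groups of arrays were checked (10 genes in 2 groups). These deviations are not independent, as those of set 1 mirror each other between groups (PLOD1 -0.088 and 0.088), so the rate is only a rough guide.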

How the results depend on the processing

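Calls of higher genes for the 10 enzymes were 2 and of lower genes 1, with 1239 and 1376 over all genes. Without a block, limma called 0 of the 10 enzymes higher, 0 lower and 0 of all genes in either direction, with 28 genes higher and 23 lower, and 0 of the 10 enzymes, at an unadjusted p under 0.05. The difference between array sets enters the residual of that fit. With the replicate block, 813 genes were higher and 875 lower, and 2 enzymes were higher and 0 lower in limma, where PLOD3 had an unadjusted p of 0.012; the block changed no other call among the 10. Quantile normalization, leaving out dim genes and a trended robust prior each gave 2 lower enzymes, PLOD1 and PLOD3. Leaving out 1 array at a time gave 714 to 1753 higher and 806 to 1578 lower genes, and 0 to 1 lower enzymes. Differences near 0 changed sign: LOXL2 was 0.01 in array set 2 alone, and 0.00 with centred arrays, and P4HA2 was 0.06 and 0.01. With 1 array left out LOXL2 ranged from -0.04 to 0.01, LOXL3 from -0.07 to 0.03 and P4HA2 from -0.04 to 0.06. The cause was not tested. Not all alternatives are separate checks. Each enzyme had 1 probe set, so testing all probe sets or that of largest variance reused its values. Leaving out either replicate 1 array gave the same group differences as array set 2 alone. LOX and PLOD2 kept direction and call in every alternative run except the fit without a block. Of 36 called genes of all lists, enzymes, markers and CDK9 included, 26 kept their call in every alternative except that fit. Apart from that fit, hypoxia list counts ranged from 3 to 8 higher and 0 to 2 lower, and cofactor supply had 2 higher in 5 alternatives besides those that leave out an array.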
